A study of Mus musculus with 8 samples.

Results

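The mitochondrial ribosomal protein genes are the 77 of 14126 genes in the deposited table whose symbol is Mrpl or Mrps followed by a digit, with 3 models named as pseudogenes left out. They comprise 48 genes named for the large subunit (Mrpl) and 29 named for the small subunit (Mrps). Their mRNA was measured in pancreatic islets of 7-week-old NOD/ShiLtJ mice, which are prone to autoimmune diabetes. The 4 libraries labelled WT came from mice with floxed alleles of the stress sensor IRE1α (IRE1α fl/fl), and the 4 labelled KO from mice given as IRE1αβ-/-, in which IRE1α is deleted in beta cells by the label. Tamoxifen at 10 mg/ml, which switches on the Cre recombinase, is recorded for both groups, given into the peritoneum over 5 days. The labels do not name the promoter that drives Cre. The gene for IRE1α is therefore floxed in every mouse, and the comparison is of deletion in beta cells against the undeleted floxed allele, in whole islets that also hold other cells. The design text gives 4 mice a group, so each library was taken as 1 animal.

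Mitochondrial ribosomes translate the few proteins encoded in mitochondrial DNA, all of them subunits of the respiratory chain and ATP synthase. Their RNA comes from the mitochondrial genome, a 12S rRNA in the small subunit and a 16S rRNA in the large one, while each of their proteins is encoded in the nucleus, made in the cytosol and imported. In beta cells the respiratory chain couples glucose breakdown to ATP, closure of potassium channels and insulin release. IRE1α is a sensor of unfolded protein in the endoplasmic reticulum, not in mitochondria.

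The values are normalized counts, and the total per library lay between 3.20e+07 and 3.49e+07. Ern1, which encodes IRE1α, had 5549, 5164, 4622 and 4500 normalized counts in the WT libraries and 7223, 7390, 6922 and 7216 in the KO libraries. It was thus higher, not lower, in the libraries labelled KO, by 0.54 ± 0.08 on the log2 scale (SE; limma-trend adjusted p = 0.00234), and since no source at hand names the floxed exons, the total over the gene does not check the label. Within each label, libraries numbered 1 and 2 stood off from those numbered 3 and 4, although the labels record no batch; the members are given by this split further on. The tissue label held, with beta cell genes among the most abundant. The summed value of 10 beta cell markers was 5369690 to 6009868 in WT and 2547831 to 3495489 in KO, with 7 lower and 0 higher. The sum of 10 alpha cell markers was 405094 to 1046145 in WT and 1926047 to 2629651 in KO, with 8 higher, and that of 14 acinar cell markers was 29251 to 316616 and 171808 to 493647, with 2 higher and 1 lower. The 7 delta, PP and epsilon cell markers summed to 104013 to 170705 in WT and 277570 to 391767 in KO, with 6 higher. The 7 ductal cell markers summed to 6111 to 7192 in WT and 11963 to 28709 in KO, with 2 higher. The 7 stellate cell and fibroblast markers summed to 1633 to 8060 in WT and 7183 to 15995 in KO, with 1 higher. Of the endothelial and macrophage markers 0 were called, and of 4 lymphocyte markers 1 was lower. Calls are by limma-trend at an adjusted p under 0.05, which 11.1% of all genes passed as higher and 9.81% as lower. The acinar share of 21.4% called was close to the 20.9% of all genes tested. The part of these cell marker shifts in the results for the mitochondrial ribosomal protein genes was not tested, and in whole islets fewer cells of a type and less RNA per cell cannot be told apart.

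All 77 genes passed the filter on low values, which asked for 4 or more libraries at 1 or above, so none was dropped. Their mean over the 8 libraries ran from 103.8 normalized counts for Mrpl14 to 1398 for Mrpl24, with a median of 486 against 588.4 for all genes tested. Levels can be set against each other only per length. On the scale of normalized counts per kilobase of the principal transcript, the WT levels ran from 78.5 for Mrpl19 to 2065 for Mrps21, with a median of 338 against 206 over all genes tested.

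Mrps21, the small subunit counterpart of bacterial bS21, stood highest per kilobase, and its values were 1019, 1120, 876 and 1016 in WT and 825, 980, 809 and 785 in KO. All but 1 KO value of Mrps21 lay below every WT value, and the change was -0.25 ± 0.10 (log2, SE; limma-trend adjusted p = 0.129), which did not pass. Mrpl24, a protein near the exit of the peptide tunnel, came next at 1111 per kilobase in WT. It had 1522, 1568, 1530 and 1328 normalized counts in WT and 1224, 1252, 1362 and 1400 in KO, with overlap through WT4. Mrpl42, at 1108 per kilobase, differed from Mrpl24 by less than the spread among libraries, with 819, 795, 608 and 730 normalized counts in WT and 721, 675, 723 and 741 in KO. Mrps18a followed at 1034 per kilobase in WT.

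Few mitochondrial ribosomal protein genes differed between the genotypes, and the differences were small. Of the 77, 1 was higher in KO (Mrpl32) and 4 were lower (Mrps14, Mrpl28, Mrps24 and Mrps28), by limma-trend at an adjusted p under 0.05. That is 6.49% of the members, where 20.9% of all 14121 genes tested were called. By direction, 11.1% of all genes tested were called higher and 9.81% lower. With normalization totals that leave out hormone and mitochondrially encoded genes, the calls over all genes moved from 1562 higher and 1385 lower, 53.0% of them higher, to 1746 and 1017, 63.2% higher, and 2 members stayed called, Mrpl32 higher and Mrps28 lower. The median log2 fold change of the members was -0.09, against -0.0008 over all genes tested. Of the 77, 52 lay below 0, which is 67.5% against 50.1%. The members' log2 fold changes ran from -0.60 to 0.56, and their 10th to 90th percentiles from -0.31 to 0.16, while those of all genes tested ran from -0.45 to 0.82.

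The intervals bound how large a change in whole islets could have been missed. They set no bound on a change within beta cells alone. The 95% interval of the log2 fold change stayed within 1 on either side of 0 for 75 of 77 members (97.4%, against 75.0% of all genes tested) and within 0.5 for 55 of 77 (71.4%, against 39.5%). In this fit a 2-fold change in either direction thus lay outside the interval of every member but Mrpl14 and Mrpl23. With the replicate block the exceptions were Mrps14, with an interval from -1.01 to -0.18, and Mrpl23, from 0.07 to 1.04. Most of the members are expressed at middling levels with little spread: the median coefficient of variation was 11.7% in WT and 8.33% in KO, against 14.2% and 11.8% over all genes tested.

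**Figure D1:**
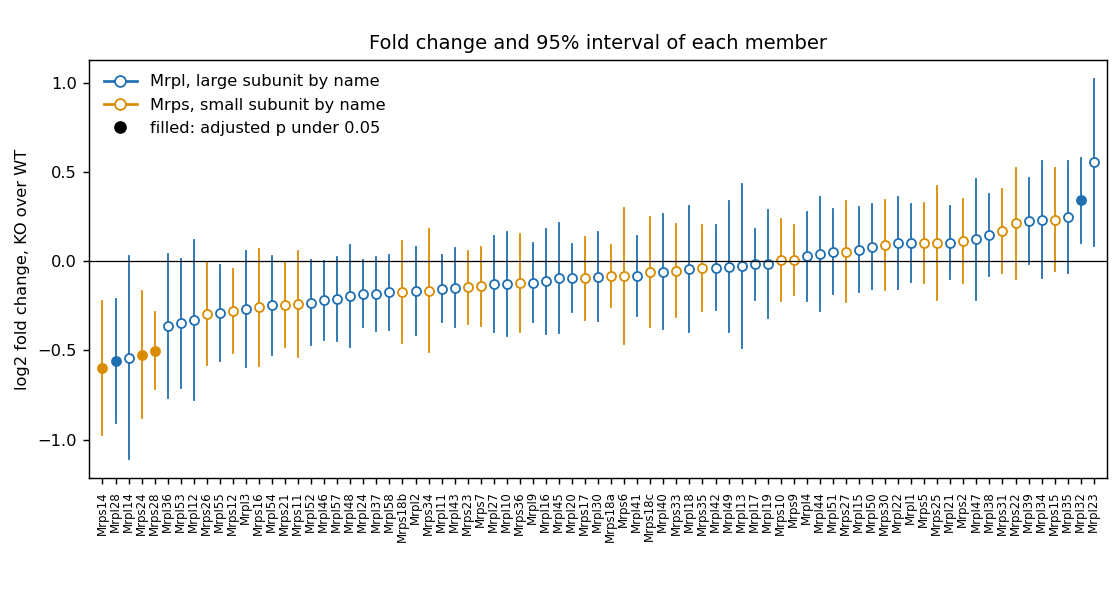
Log2 fold change of KO over WT (vertical axis) for each of the 77 mitochondrial ribosomal protein genes, in order (horizontal axis), with 95% intervals from limma-trend; blue marks Mrpl and orange Mrps genes, and filled points passed an adjusted p of 0.05. The points run from -0.60 for Mrps14 to 0.56 for Mrpl23, and 4 filled points lie at the low end and 1 near the high end.

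Among small subunit genes, Mrps28 gave the steadiest difference. It encodes a structural protein of the small subunit. Mrps28 had 459, 503, 464 and 421 normalized counts in WT and 312, 357, 320 and 314 in KO. Every KO library lay below every WT library. The mean fell from 461.8 ± 33.5 (SD, n = 4) to 325.8 ± 21.1 (SD, n = 4), which is -0.50 ± 0.10 on the log2 scale (SE; limma-trend adjusted p = 0.00676). It was -0.52 in libraries 1 and 2 alone and -0.48 in libraries 3 and 4 alone, and it was called in each.

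Mrps14, the counterpart of bacterial uS14 in the head of the small subunit, had the largest fall. Its values were 813, 763, 639 and 472 in WT and 390, 425, 455 and 472 in KO. WT4 equalled KO4, and the other WT libraries lay above every KO library. The mean went from 671.8 ± 152 to 435.5 ± 36.0 (SD, n = 4 each), or -0.60 ± 0.17 as a log2 fold change (SE; limma-trend adjusted p = 0.0339). The size depended on the libraries: its log2 fold change was -0.95 for libraries 1 and 2 but -0.24 for libraries 3 and 4, the latter with an adjusted p of 0.305 by limma-trend. The interaction of genotype and library pair for Mrps14 had an adjusted p of 0.147, so a difference between the pairs was not shown.

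Mrps24 encodes the counterpart of bacterial uS3, which lines the channel where mRNA enters. It had 391, 382, 288 and 321 normalized counts in WT and 201, 302, 243 and 218 in KO. The groups overlapped only where KO2 exceeded WT3. The log2 fold change was -0.52 ± 0.16 (SE; limma-trend adjusted p = 0.0453). Exons of Mrps24 overlap those of Urgcp on the same strand, with 231 shared bases at 99.6% identity, so reads there could be counted to either gene. Urgcp, looked at for this reason, went from a mean of 2074 to 1655 normalized counts, a log2 fold change of -0.33 (limma-trend adjusted p = 0.0146).

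In the large subunit, Mrpl28 fell and Mrpl32 rose. Mrpl28, the counterpart of bacterial bL28, had 738, 869, 712 and 525 normalized counts in WT and 465, 549, 469 and 423 in KO. Only KO2 exceeded a WT library, WT4. The mean went from 711 ± 142 to 476.5 ± 52.6 (SD, n = 4 each), or -0.56 ± 0.15 as a log2 fold change (SE; limma-trend adjusted p = 0.0329). Mrpl28 was lower by 0.66 on the log2 scale in libraries 1 and 2, and by 0.46 in libraries 3 and 4, where the adjusted p was 0.0861 by limma-trend.

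Mrpl32 encodes the counterpart of bacterial bL32, a precursor that the inner membrane protease of Afg3l2 and Spg7 cuts before it joins the ribosome. Its values were 442, 414, 331 and 421 in WT and 516, 496, 502 and 513 in KO. Every KO library lay above every WT library, and the 4 KO values were close together. The log2 fold change was 0.34 ± 0.11 (SE; limma-trend adjusted p = 0.0495). This adjusted p lay at the threshold and the call was lost in 14 of 20 alternatives, among them the fit with the replicate number as a block (adjusted p = 0.0526). The 2 protease genes were not called: Afg3l2 changed by -0.18 (limma-trend adjusted p = 0.107) and Spg7 by -0.15 (limma-trend adjusted p = 0.252).

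Of the 5 called members only Mrps28 was called in all 20 alternatives, in which its log2 fold change ran from -0.56 to -0.46. Mrps14 lost its call in 9, Mrpl28 in 8 and Mrps24 in 9. Most of these lost calls came with 1 library left out: with either WT2, KO1, KO3 or KO4 removed, Mrps28 alone remained. The fit with the replicate block called 5 members, all lower, with Mrpl36 in place of Mrpl32, where 25.8% of all genes were called (14.2% higher, 11.7% lower). With the pair of libraries as a term 7 members were called, Mrpl36 and Mrps26 lower beside the 5, against 31.9% of all genes (2400 genes higher, and 14.9% of all lower). Of the genes in the authors' deposited table, 29.3% of all genes passed an FDR of 0.05, and the same 5 members as under the block were among them. There Mrpl28 had a log2 fold change of -0.57 (FDR 0.000860), Mrps14 -0.61 (FDR 0.00172), Mrps28 -0.50 (FDR 0.00445), Mrps24 -0.51 (FDR 0.0217) and Mrpl36 -0.37 (FDR 0.0267), in the authors' deposited table.

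Mrpl36, the counterpart of bacterial bL36 and a small protein of the large subunit, is named after these fits were seen. It had 924, 893, 696 and 547 normalized counts in WT and 612, 686, 549 and 496 in KO. WT4 lay among the KO libraries, and within each genotype libraries 3 and 4 lay below libraries 1 and 2. The log2 fold change was -0.36 ± 0.18 (SE; limma-trend adjusted p = 0.182, and 0.0379 with the replicate block).

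**Figure D2:**
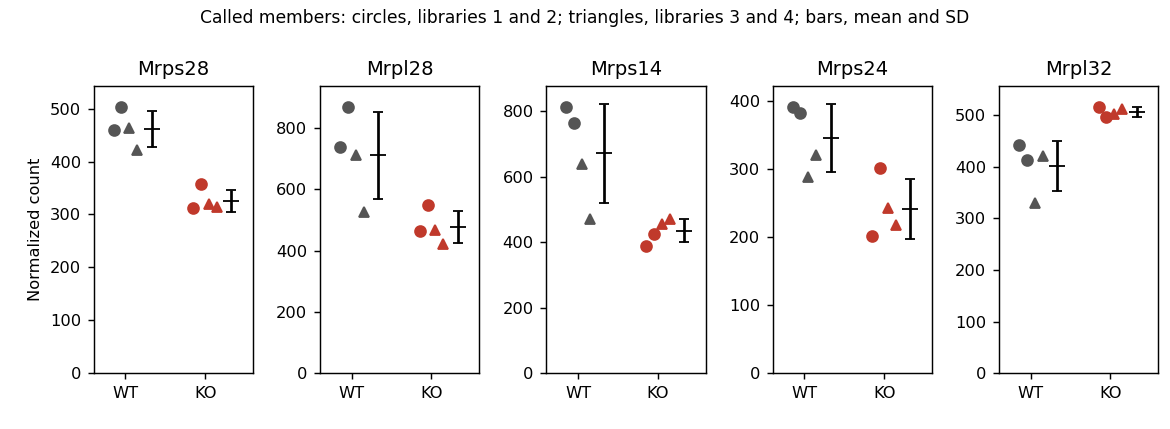
Normalized counts (vertical axes, from 0) of the 5 called members in each library, WT in grey and KO in red, with the mean and SD (n = 4) beside the points; circles are libraries 1 and 2 and triangles libraries 3 and 4. Mrps28 and Mrpl32 show no overlap between groups, while for Mrps14 the WT4 triangle, at 472, is level with the KO libraries.

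The promoter windows of the called genes are shown because these genes passed the test while others of the same particle did not. RefSeq start sites (GRCm38.p6) were matched for 68 of the 77 members, and Mrps28 was not among them. Each window runs from 150 bases before the start to 30 after it, 5′ to 3′ on the gene's strand, in lower case. Capitals mark the letters of the site of nuclear respiratory factor NRF1 (its 10-base palindrome), CCGGAAG (ETS factors such as GABP) or AAGATGGC (YY1), on either strand. The window of Mrps18a, a named member that was not called, is added because it holds both an ETS and a YY1 match.
Mrps14, chr1:160195065-160195244, + strand: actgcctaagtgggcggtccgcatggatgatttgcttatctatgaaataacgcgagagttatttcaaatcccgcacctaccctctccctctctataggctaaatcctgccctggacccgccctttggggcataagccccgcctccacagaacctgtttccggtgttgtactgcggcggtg
Mrps24, chr11:5707672-5707851, - strand: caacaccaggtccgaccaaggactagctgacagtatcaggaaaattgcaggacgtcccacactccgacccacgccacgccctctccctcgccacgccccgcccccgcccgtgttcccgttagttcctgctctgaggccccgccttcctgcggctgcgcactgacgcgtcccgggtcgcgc
Mrpl28, chr17:26123353-26123532, + strand: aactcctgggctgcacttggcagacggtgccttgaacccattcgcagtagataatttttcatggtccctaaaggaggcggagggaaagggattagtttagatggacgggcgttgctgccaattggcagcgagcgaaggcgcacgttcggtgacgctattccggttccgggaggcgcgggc
Mrpl32, chr13:14613008-14613187, - strand: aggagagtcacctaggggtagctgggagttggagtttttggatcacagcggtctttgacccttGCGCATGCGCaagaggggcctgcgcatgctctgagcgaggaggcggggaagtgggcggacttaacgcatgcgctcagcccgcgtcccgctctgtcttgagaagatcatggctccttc
Mrps18a, chr17:46110854-46111033, + strand: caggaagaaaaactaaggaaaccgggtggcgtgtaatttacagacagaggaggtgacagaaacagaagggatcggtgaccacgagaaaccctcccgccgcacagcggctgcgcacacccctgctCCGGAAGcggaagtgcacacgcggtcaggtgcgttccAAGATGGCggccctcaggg

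The Mrps14, Mrps24 and Mrpl28 windows hold none of the 3 motifs, and the Mrpl32 window holds an NRF1 match upstream of the start. For Mrps24 this holds for the RefSeq start only. The GENCODE gene given further on begins upstream of that window, at 5715680 on the minus strand, and sequence there was not searched. Outside the printed stretch, Mrps24 holds a YY1 match after the start and Mrpl32 a YY1 match further upstream. Matches were counted in the whole 300 bases from 250 before the start to 50 after it, on both strands. CCGGAAG was found in 25 of 68 members (36.8%) and in 19.0% of 10540 promoters of genes in the table. AAGATGGC was found in 12 of 68 (17.6%, against 5.09%), and the NRF1 palindrome in 3 of 68 (Mrpl9, Mrpl32 and Mrpl39; 4.41%, against 2.23%). At least 1 of the 3 was present in 36 of 68 members (52.9%, against 24.5%), with 22 of 42 in the large subunit and 14 of 26 in the small one. The cyclic AMP element TGACGTCA was found in 2 members (2.94%, against 3.61%) and the E-box CACGTG in 5 (7.35%, against 11.4%). The stress elements TTGCATCA (C/EBP-ATF) and TGACGTGG (unfolded protein response) were found in 0 of 68, against 0.721% and 1.06% of all promoters. These are matches of letters, and binding was not measured.

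The members with the widest uncalled differences were Mrpl23 and Mrpl14. Mrpl23 encodes the counterpart of bacterial uL23 at the exit of the peptide tunnel. It had 179, 224, 197 and 363 normalized counts in WT and 375, 347, 325 and 318 in KO. WT4 lay among the KO libraries and the other WT libraries lay well below all of them. The log2 fold change was 0.56 ± 0.21 (SE; limma-trend adjusted p = 0.0894). Without WT4 it was called, as it was in libraries 1 and 2 alone, where the log2 fold change was 0.85.

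Mrpl23 cannot be read without its pseudogene model. The transcript of Mrpl23-ps1, a processed pseudogene, matches Mrpl23 at 100% over 540 of its 580 bases, so most reads from either fit both. Mrpl23-ps1, looked at after the values of Mrpl23 were seen, had 617, 597, 461 and 298 normalized counts in WT and 354, 399, 368 and 384 in KO. WT1 to WT3 lay above every KO library and WT4 below all of them. The sum of both was 796, 821, 658 and 661 in WT and 729, 746, 693 and 702 in KO, with means of 734 ± 86.6 and 717.5 ± 24.4 (SD, n = 4 each). On the log2 scale the sum differed by -0.03. Mrpl23 took 22.5%, 27.3%, 29.9% and 54.9% of the sum in WT and 51.4%, 46.5%, 46.9% and 45.3% in KO. The share of Mrpl23 thus differed between libraries, while the group means of the sum were close. The sum itself was lower in WT3 and WT4 than in WT1 and WT2.

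**Figure D3:**
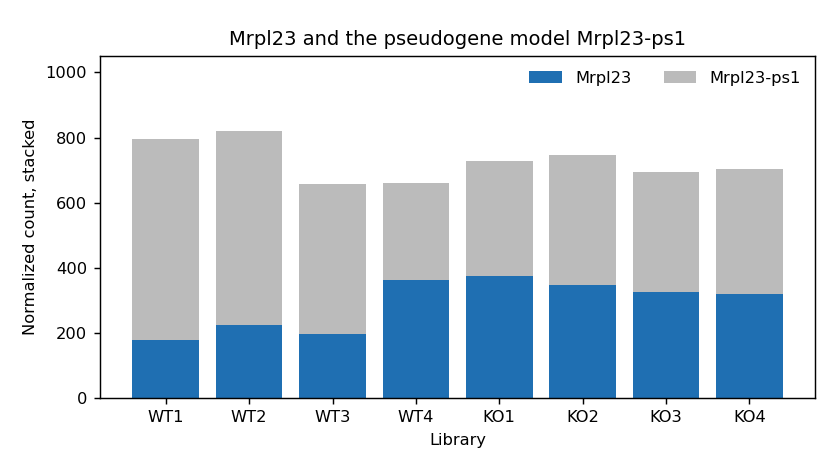
Normalized counts (vertical axis) of Mrpl23 in blue with those of Mrpl23-ps1 stacked in grey, for each library (horizontal axis). The stacks stay between 658 and 821, while the blue share is 22.5% to 29.9% in WT1 to WT3 and 45.3% to 54.9% in WT4 and the KO libraries.

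The other pseudogene models in the table belong to Mrps36 and Mrpl48. Mrps36-ps1 matches 306 bases at 99.3% and held 54, 59, 59 and 13 normalized counts in WT and 16, 24, 7 and 11 in KO. Mrpl48-ps matches 636 bases at 98.1% and held 210, 185, 178 and 304 in WT and 206, 280, 305 and 236 in KO. In WT4 both models again stood apart from WT1 to WT3, Mrps36-ps1 lower and Mrpl48-ps higher. Summed with their models, Mrps36 changed by -0.22 and Mrpl48 by -0.11 on the log2 scale, against -0.12 and -0.20 alone. Outside these, 2 members share long stretches with neighbours on the same strand, Mrpl53 with Gm42688 (695 bases) and Mrps34 with Nme3 (642 bases). Exons of Mrps6 also overlap those of Slc5a3 on the same strand. Shorter stretches resemble other genes, for Mrpl13 Eapp (202 bases) and Zmynd8 (204 bases), and for Mrps26 Exoc1 (208 bases) among others. Values of all these members are uncertain to that extent.

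Mrpl14, the counterpart of bacterial uL14 on the face that meets the small subunit, had the lowest mean normalized count of the 77, not corrected for length. It had 117, 145, 122 and 102 normalized counts in WT and 109, 109, 72 and 54 in KO. KO1 and KO2 lay within the WT range and KO3 and KO4 below it. The log2 fold change was -0.54 ± 0.25 (SE; limma-trend adjusted p = 0.162).

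The large and small subunit genes had close medians. Of the 48 Mrpl genes, 1 was higher and 1 lower in KO, with a median log2 fold change of -0.09. Of the 29 Mrps genes, 0 were higher and 3 lower, with a median of -0.08. That is 4.17% of the Mrpl and 10.3% of the Mrps genes called, against 20.9% of all genes tested. Gene symbols do not always give the place of a protein: structures put Mrps18a and Mrps30 in the large subunit, and Mrps36 is now known as a subunit of the 2-oxoglutarate dehydrogenase complex. By structure the counts were 1 higher and 1 lower of 50 for the large subunit and 0 and 3 of 26 for the small one. The ratio of summed large to summed small subunit values was 1.82, 1.85, 1.80 and 1.65 in WT and 1.84, 1.80, 1.81 and 1.83 in KO. WT4 was the low library, and the KO ratios lay within the range of the other WT libraries. In WT4 the median deviation from a gene's own mean over libraries was -0.07 (log2) for Mrpl and 0.07 for Mrps genes.

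Regions of the large subunit were not called either, by limma-trend over all genes. The stalks, as listed here, were Mrpl1, Mrpl10, Mrpl11, Mrpl12, Mrpl53 and Mrpl54. The exit tunnel was Mrpl17, Mrpl22, Mrpl23, Mrpl24, Mrpl45 and Mrpl47. The central protuberance, as listed here, was Mrpl18, Mrpl38, Mrpl40, Mrpl46, Mrpl48 and Mrps30. Each region had 0 of 6 called, where 20.9% of all genes tested were called. The median log2 fold changes of the regions were -0.20, 0.04 and -0.05 in that order. In the stalks, 5 of 6 had a log2 fold change below 0 in value, with Mrpl53 lowest at -0.35 (limma-trend adjusted p = 0.159).

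The 3 paralogs Mrps18a, Mrps18b and Mrps18c, descended from the gene for bacterial bS18, each occupy a site of their own. Mrps18a had 905, 921, 849 and 980 normalized counts in WT and 896, 898, 828 and 825 in KO. Mrps18b had 619, 668, 716 and 768 in WT and 511, 594, 617 and 750 in KO. Mrps18c had 458, 380, 363 and 310 in WT and 321, 339, 386 and 395 in KO. All 3 overlapped between groups, and their log2 fold changes were -0.08, -0.17 and -0.06 (limma-trend adjusted p = 0.487, 0.372 and 0.800). In libraries 1 and 2 the value of Mrps18c was -0.34 and in libraries 3 and 4 it was 0.22.

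Mrps30, listed above with the central protuberance, had 410, 396, 406 and 461 normalized counts in WT and 411, 403, 447 and 528 in KO. Mrps36 had 417, 434, 335 and 396 in WT and 318, 340, 396 and 399 in KO. Both overlapped between groups, with log2 fold changes of 0.09 (limma-trend adjusted p = 0.612) and -0.12 (limma-trend adjusted p = 0.522).

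Groups without overlap were also counted, with the called Mrps28 and Mrpl32 among them. All 4 KO values lay below all 4 WT values for 5 members (Mrps28, Mrpl11, Mrpl46, Mrpl52 and Mrpl55), and above them for 1 (Mrpl32). Over all genes tested the shares were 12.3% and 13.6%. At an unadjusted p under 0.05 by limma-trend, 2 of 77 members were higher and 8 lower, against 2580 and 2362 of all 14121 genes tested.

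Taken as a sum, the 77 genes came to 45410, 45895, 39455 and 40330 normalized counts in WT and 40330, 41999, 39052 and 40556 in KO. WT1 and WT2 stood above the 6 other libraries, and WT3 and WT4 lay within the KO range. The means were 42772 ± 3351 in WT and 40484 ± 1208 in KO (SD, n = 4 each), and the members' share of the table's total was 0.125% ± 0.00993 in WT and 0.121% ± 0.00549 in KO.

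**Figure D4:**
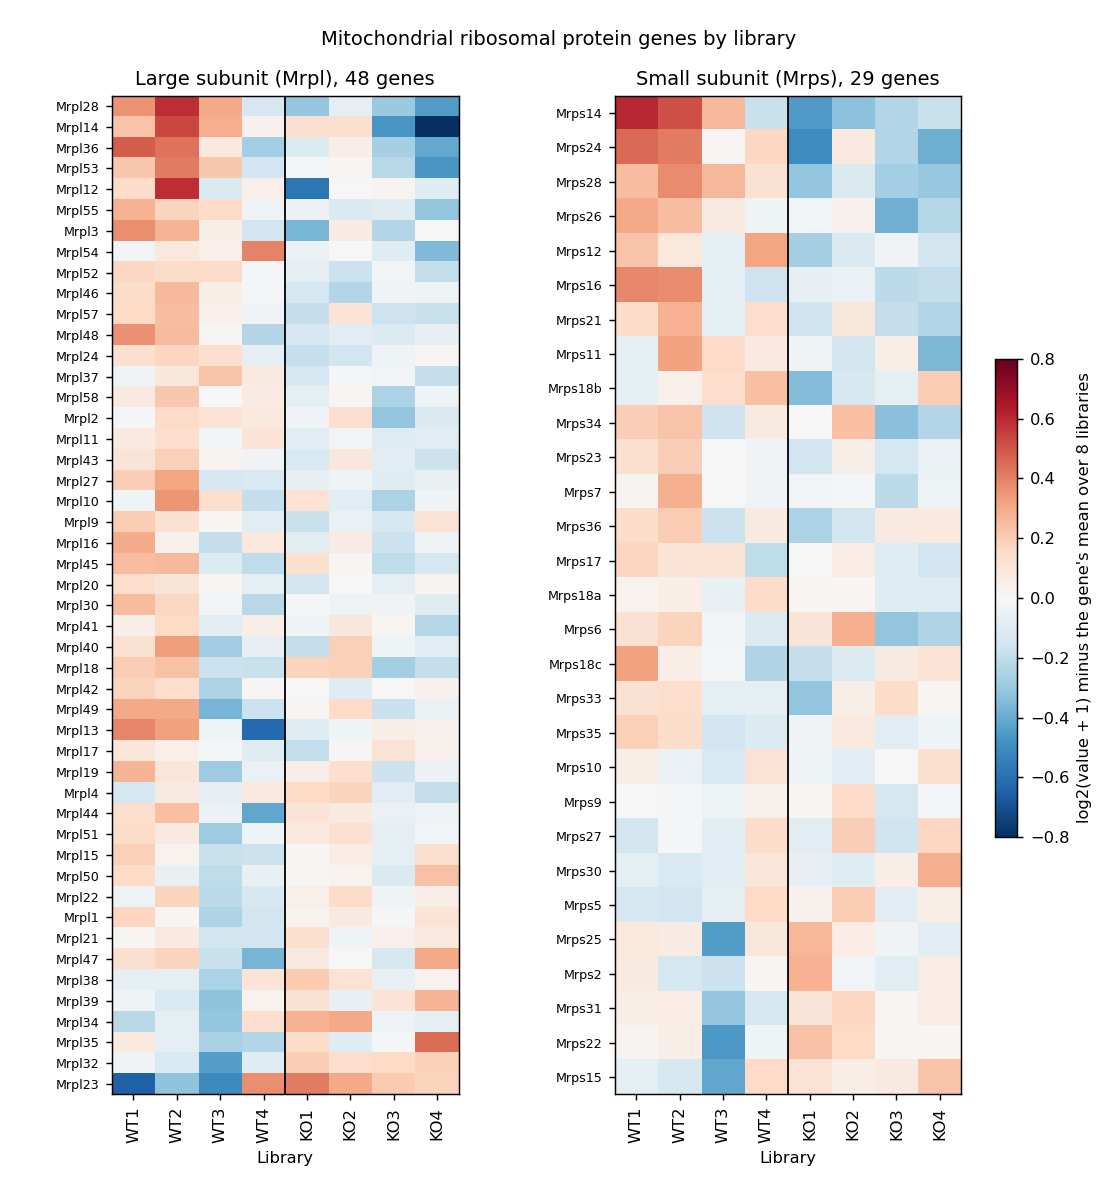
Log2(value + 1) minus the gene's mean over 8 libraries (colour, red above and blue below) for each Mrpl gene (left) and Mrps gene (right), with genes in order of log2 fold change and libraries as columns; the black line parts WT from KO. The columns of WT1 and WT2 are the reddest, with 60 and 63 of 77 members above their own mean, against 17 to 46 in the other libraries.

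The members were also compared between the pairs of libraries, a split that was read from these data and that no label gives. The p-values for it therefore describe the split and are no independent test of it. Libraries 3 and 4 gave lower values than libraries 1 and 2 for 63 of 77 members (81.8%, against 53.9% of all genes tested), with a median log2 difference of -0.13 against -0.02. In the fit with both terms, 4 of 77 members were lower in libraries 3 and 4 by limma-trend, and 0 higher. They were Mrpl18, Mrpl36, Mrpl45 and Mrpl49, all from the 48 Mrpl genes. Their log2 differences were -0.41, -0.43, -0.32 and -0.39 in that order (limma-trend adjusted p = 0.0104, 0.0213, 0.0337 and 0.0293). Over all genes 6.06% were called lower and 9.38% higher. All 4 values of libraries 3 and 4 lay below those of libraries 1 and 2 for 10 members (7.07% of all genes) and above them for 0 (7.91% of all genes).

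Mrpl49 had 1022 and 1021 normalized counts in WT1 and WT2, 641 and 736 in WT3 and WT4, 837 and 924 in KO1 and KO2, and 733 and 799 in KO3 and KO4. Mrpl45, which ties the ribosome to the inner membrane, had 506, 510, 396 and 370 in WT and 467, 431, 370 and 389 in KO. Both were lower in libraries 3 and 4 of either genotype. Neither was called between genotypes (log2 fold changes of -0.03 and -0.10, limma-trend adjusted p = 0.919 and 0.670). For Mrpl49, KO1 and KO2 lay below both WT1 and WT2, while KO3 lay between WT3 and WT4 and KO4 lay above both. These genes were named after the fit by library was seen.

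The step between the pairs was also counted within each genotype. Within WT, both of libraries 3 and 4 lay below both of libraries 1 and 2 for 46 of 77 members (59.7%, against 32.0% of all genes tested). Within KO this held for 28 of 77 (36.4%, against 29.6%). The median log2 fold change of KO over WT was -0.16 for the first pair, libraries 1 and 2, and -0.03 for the second, libraries 3 and 4. In libraries 1 and 2 alone 1 member was higher (Mrpl23) and 7 lower (Mrpl13, Mrpl28, Mrpl36, Mrpl48, Mrps14, Mrps16 and Mrps28), where 12.3% and 10.9% of all genes were called. In libraries 3 and 4 alone 0 were higher and 1 lower (Mrps28), against 11.3% and 11.4%. The interaction of genotype and pair was called for 0 of 77 members by limma-trend, and for 14 of all genes tested, with 8 members and 2652 of all genes at an unadjusted p under 0.05. A difference in the genotype effect between the pairs was thus not shown for any single member. The pairs were read from the data, and what they stand for was not tested.

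**Figure D5:**
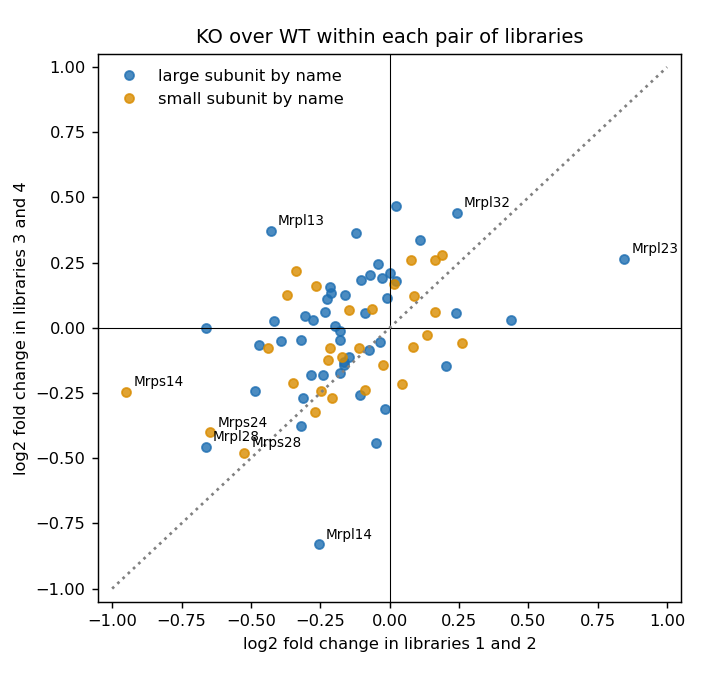
Log2 fold change of KO over WT in libraries 1 and 2 (horizontal axis) and in libraries 3 and 4 (vertical axis) for the 77 members, blue for Mrpl and orange for Mrps; the dotted line marks equal values. Mrps28 lies near the line at -0.52 and -0.48, Mrps14 lies at -0.95 and -0.24, and the members' medians are -0.16 and -0.03.

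The genes that work with these proteins also held few calls. Of 71 measured genes for assembly, translation, mitochondrial transcription and their nuclear regulators, 0 were higher and 4 lower in KO by limma-trend. That is 5.63%, against 20.9% of all genes tested (11.1% higher and 9.81% lower). The median log2 fold change of the 71 was -0.06. With the replicate block 2 were higher and 6 lower, where 14.2% and 11.7% of all genes were called. The lists were Mrp-free structural proteins, assembly and rRNA modification, translation factors, mRNA handling and membrane insertion, transcription of mitochondrial DNA, nuclear regulators and the 2 mitochondrial rRNA genes.

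Among 28 assembly and rRNA modification genes, Rcc1l and Trmt2b were lower. Rcc1l, a factor of large subunit assembly, had a mean of 337 normalized counts in WT and 221.8 in KO (log2 fold change -0.62 ± 0.15, SE; limma-trend adjusted p = 0.0206). Trmt2b, which methylates uridine in mitochondrial tRNA and 12S rRNA, went from 1304 to 929.5 (-0.48 ± 0.11, SE; limma-trend adjusted p = 0.0147). Among 12 translation factors, Tsfm, the exchange factor for the elongation factor Tufm, went from 309.2 to 232.2 (-0.42 ± 0.11, SE; limma-trend adjusted p = 0.0301). Gfm2, which splits the subunits after termination, went from 1239 to 1019 (-0.28 ± 0.08, SE; limma-trend adjusted p = 0.0367). These calls were lost in 6 (Rcc1l), 1 (Trmt2b), 10 (Tsfm) and 11 (Gfm2) of 20 alternatives. Tufm, the partner of Tsfm, changed by 0.04 and Gfm1, the translocation factor, by 0.01, and neither passed.

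None of the 5 structural proteins without an Mrp symbol was called by limma-trend. Dap3, a GTP-binding protein of the small subunit, changed by -0.20 (limma-trend adjusted p = 0.170) and Ptcd3, a small subunit protein with RNA-binding repeats, by 0.07 (limma-trend adjusted p = 0.632). Gadd45gip1, of the large subunit, had the largest value of this list at -0.47 (limma-trend adjusted p = 0.0755, and 0.0157 with the replicate block), and was named after its value was seen. The 9 mRNA handling genes and the 6 transcription genes had 0 called, with medians of -0.02 and -0.003. From these, Lrpprc, which stabilizes mitochondrial mRNA, changed by -0.25, Fastk by -0.20, Tfam, which packs mitochondrial DNA, by -0.004 and Tfb2m, a transcription factor of mitochondria, by 0.27.

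The 9 nuclear regulators had 0 called, with a median of 0.25, and 3 of the 9 had a log2 fold change below 0. These were Ppargc1b at -0.61 (limma-trend adjusted p = 0.0865), Esrra at -0.14 and Pprc1 at -0.07, named after their values were seen. All 4 KO values of Ppargc1b lay below all 4 WT values, as for 12.3% of all genes tested. Yy1 changed by 0.22 (limma-trend adjusted p = 0.287) and Gabpa, the DNA-binding subunit of GABP, by 0.25 (limma-trend adjusted p = 0.0978). Gabpa passed with the library pair as a term (limma-trend adjusted p = 0.0411). Nrf1, named after its values were seen, had 662, 719, 724 and 723 normalized counts in WT and 842, 759, 884 and 908 in KO. Every KO value lay above every WT value, as for 13.6% of all genes tested. For Nrf1 the log2 fold change was 0.26 (limma-trend adjusted p = 0.0563, and 0.0268 with the library pair as a term). Ppargc1a and Gabpb1, also named after their values were seen, passed with the replicate block. Ppargc1a, the coactivator PGC-1α, had 25, 26, 144 and 128 normalized counts in WT and 101, 97, 331 and 202 in KO. Libraries 3 and 4 were the higher ones in both groups, which overlap. Its log2 fold change was 1.42 ± 0.67 (SE; limma-trend adjusted p = 0.166, and 0.00987 with the replicate block), and libraries 3 and 4 exceeded libraries 1 and 2 by 1.87 (limma-trend adjusted p = 0.000963). Gabpb1, the partner subunit of Gabpa, changed by 0.36 (limma-trend adjusted p = 0.0942, and 0.0258 with the replicate block). Of the rRNA genes, mt-Rnr1 (12S) had a mean of 465401 normalized counts in WT and 424866 in KO, a log2 fold change of -0.11 ± 0.20 (SE; limma-trend adjusted p = 0.736). For mt-Rnr2 (16S) the log2 fold change was 0.22 ± 0.37 (SE; limma-trend adjusted p = 0.718). The means of mt-Rnr2 were 4.883e+06 ± 709283 in WT and 5.695e+06 ± 754494 in KO (SD, n = 4 each). Its error in this fit was wider than that spread alone gives, because limma-trend draws each variance toward a trend with level. In this fit no close bound was set on the rRNA, whereas the protein genes were bounded more tightly. The libraries were made as mRNA libraries, and how fully they capture rRNA is not given. Per kilobase, the WT levels were 487331 for 12S and 3.09e+06 for 16S, so these values need not follow the amounts in ribosomes.

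By position, all 77 genes were matched to GENCODE M21 annotation (GRCm38) as protein-coding genes on 17 chromosomes. The called genes lie at chr3:8802146-8923918 on the minus strand (Mrps28), chr1:160195215-160202170 on the plus strand (Mrps14), chr11:5703983-5715680 on the minus strand (Mrps24), chr17:26123500-26126613 on the plus strand (Mrpl28) and chr13:14608184-14613165 on the minus strand (Mrpl32). A protein-coding gene starting head to head within 1000 bases was found for 26 of 77 (33.8%), against 13.6% of 13252 protein-coding genes in the table. Of the 23 such partners measured, 0 were called higher and 1 lower, where 11.1% and 9.81% of all genes tested were. Psma2, a proteasome subunit gene whose start lies 75 bases from that of Mrpl32, changed by -0.03 (limma-trend adjusted p = 0.886).

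A pair of members is among these neighbours: Mrps11 and Mrpl46 start head to head on chromosome 7. Mrps11 had 250, 331, 294 and 279 normalized counts in WT and 259, 239, 274 and 206 in KO. Mrpl46 had 432, 468, 404 and 386 in WT and 354, 332, 383 and 380 in KO. Their log2 fold changes were -0.24 and -0.22 (limma-trend adjusted p = 0.237 and 0.150). Neither passed, and their starts overlap on opposite strands, so without strand information reads there cannot be told apart.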

How the data were processed

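Islet RNA of 8 mice was sequenced as mRNA libraries. The submitters' processing notes name STAR 2.5.3a, RSEM 1.2.31, edgeR 3.16.15 and build GRCm38.p5, without saying which step each served. Settings and strandedness were not given in the sources used here. Values of 14126 genes were deposited in 1 table. Its per-library columns, deposited by the authors as normalized counts rounded to whole numbers (read from their header names and values), are a score and not raw counts. The same deposited table gives the authors' log2 fold change and log2 CPM, a likelihood ratio score, and p-values with their FDR. Reads per library are unknown, so no counting interval was given. Precision rests on the spread of 4 libraries a group, with each variance drawn by limma-trend toward a trend with level.

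The 14121 genes at 1 or above in 4 or more libraries were tested with limma-trend (limma 3.58.1, R 4.3.3) on log2(value + 1), with Benjamini-Hochberg adjustment over all of them and a threshold of 0.05. Fold changes are on that scale and understate changes of low genes. Same-numbered WT and KO libraries deviated together (correlations of 0.327, 0.583, 0.664 and 0.381 over 13081 genes with a mean above 50), so a fit with the number as a block was run; the crossed numbers within libraries 1 and 2 or within 3 and 4 correlated from 0.433 to 0.516. Alternatives were other pseudocounts and filters, other totals, quantile normalization, the block, the library pair as a term or alone, robust moderation, the authors' own calls and each library left out. Named were the called members, the 2 highest per kilobase in each subunit, the widest uncalled rise and fall, the Mrps18 paralogs, Mrps30, Mrps36 and, from each companion list, up to 3 called genes or else the 2 highest; other names were chosen after values were seen. The members and lists were chosen with earlier results of these data known. Transcripts were compared with blastn 2.17.0, at 95% identity over at least 200 bases.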

Additional observations from a re-analysis of the deposited data

Results flagged for a closer look

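In a group of 4 libraries, a value was singled out when its gap to the nearest other exceeded Dixon's critical share of the group's range, which chance does for about 1 in 20 groups; 70 groups were looked at. For Rcc1l in WT, WT4 had 292 normalized counts and the next library 350 (gap 0.921 of the range). For Gabpa in WT, WT4 had 1580 and the next library 1290 (0.929). Both genes belong to the companion lists, and no member among the genes looked at was singled out.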

How the results depend on the processing

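Against 5 called members (1 higher, 4 lower), 0 were higher with a pseudocount of 10, quantile normalization, robust moderation, the replicate block, the authors' deposited table and in libraries 3 and 4 alone. Lower members numbered 1 with totals that leave out hormone and mitochondrially encoded genes and in libraries 3 and 4, and 7 in libraries 1 and 2. With each library left out in turn, 0 to 1 members were higher and 1 to 4 lower, while 863 to 1599 of all genes were lower. In the large subunit 0 were higher with a pseudocount of 10, quantile normalization, the block, robust moderation, the authors' table and libraries 3 and 4; lower genes numbered 0 with the other totals and in libraries 3 and 4, 2 with quantile normalization, the block, the library pair as a term and the authors' table, 4 in libraries 1 and 2, and 0 to 2 with a library left out. Its median was 0.015 in libraries 3 and 4. Of the small subunit, 1 was lower with the other totals and in libraries 3 and 4, and 1 to 3 with a library left out. The pair as a term called 2400 genes higher and 2102 lower.

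Companions called higher numbered 2 with the other totals, the block, the authors' table and libraries 3 and 4, 4 with the pair as a term, and 1 in libraries 1 and 2; lower ones numbered 2 with the other totals and in libraries 3 and 4 and 8 with the pair as a term. With a library left out 0 to 1 companions were higher and 1 to 7 lower, where 1121 to 1684 of all genes were higher and 863 to 1599 lower. Between the library pairs, the other totals called 1324 genes and 8 members lower, and leaving out a library gave 433 to 776 genes and 1 to 4 members.

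Several uncalled values changed sign. In libraries 3 and 4 they were 0.14 for Mrpl42, 0.22 for Mrps18c, 0.13 for Mrps36, 0.22 for Tfam and 0.070 for mt-Rnr1. In libraries 1 and 2 they were 0.064 for Fastk and -0.035 for Ptcd3. With the other totals Mrpl42 was at 0.00690 and Tfam at 0.040, and with quantile normalization Tfam was at 0.018 and mt-Rnr1 at 0.047, while mt-Rnr2 gave no value. With a library left out the ranges were -0.13 to 0.016 for Mrpl42, -0.15 to 0.037 for Mrps18c, -0.10 to 0.067 for Tfam and -0.22 to 0.00410 for mt-Rnr1. The cause of these changes was not tested. The replicate block changed the calls of Mrpl32, Mrpl36, Gadd45gip1, Ppargc1a and Gabpb1 and no other call of a named gene, and the members' median stayed below 0 in all alternatives, from -0.16 to -0.03. The reads behind the values are unknown, so what depth limits is unknown too.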
